A study of Mus musculus with 16 samples.

Results

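The clustered protocadherins are cadherin-like adhesion proteins encoded in 3 neighbouring arrays of genes, the alpha (Pcdha), beta (Pcdhb) and gamma (Pcdhg) clusters. Members were taken by symbol among the protein-coding genes of GENCODE M21, which gave 57 of the 35968 genes summed from the deposited transcript estimates: 14 alpha, 22 beta and 21 gamma genes, with 24, 26 and 37 transcripts. All lie on the plus strand of chromosome 18 (GRCm38), the alpha genes between 36930184 and 37187661, the beta genes between 37264938 and 37524479 and the gamma genes between 37661793 and 37841873. Poly(A) RNA was sequenced from mouse embryonic stem cells (ESCs), pluripotent cells of the early embryo, that were wild type or carried a knockout of Dgcr8, the RNA-binding partner of Drosha in the complex that releases microRNA precursors. Each genotype was kept in normal ESC culture or in culture with an mTOR inhibitor, sampled on day 2 and called paused; mTOR is the kinase that couples cell growth to nutrients. The 4 groups were therefore wild type in normal culture, wild type paused, knockout in normal culture and knockout paused, with 4 libraries each. The labels do not name the inhibitor, the strain, the deleted part of Dgcr8 or the origin of the replicates, so p-values measure the spread between these libraries only, which may be technical.

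Each alpha and gamma gene supplies its own large variable exon, which encodes the extracellular cadherin repeats and the membrane span, and which is spliced to constant exons at the end of the cluster that encode a shared cytoplasmic tail. Beta genes lack constant exons. In neurons, promoters of the alternate isoforms are chosen one by one, with CTCF and cohesin at the promoters and DNA methylation at the unused ones, and the resulting sets of isoforms let a neuron tell its own branches from those of others. The C-type isoforms at the end of the alpha and gamma arrays (Pcdhac1, Pcdhac2, Pcdhgc3, Pcdhgc4 and Pcdhgc5) are regulated apart from the alternate ones and are found broadly in neurons.

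Libraries held 88377380 to 116646028 estimated counts. Dgcr8 mRNA stood at 45.3 to 56.2 CPM (counts scaled to one library size, after a correction for library composition) in the 8 wild-type and at 173 to 256 CPM in the 8 knockout libraries. Because the deleted part is not stated, this level checks nothing about the genotype. The Y-linked gene Ddx3y had 83.9 to 107 CPM in wild-type and 0.130 to 0.356 CPM in knockout libraries, so the genotypes also differ in a Y-linked transcript. In all comparisons between the genotypes below, also of their responses to pausing, loss of Dgcr8 and other differences between these cells cannot be told apart. All 10 ESC markers examined were abundant, with a summed level of 5913 to 7034 CPM per library. Of the other cell types, the 10 neuron markers summed to 495 to 526 CPM in wild-type normal, 455 to 495 in wild-type paused, 447 to 479 in knockout normal and 364 to 428 in knockout paused libraries, mostly Stmn2 and Tubb3, with Dcx at a mean of at most 0.0939 CPM in a group. The 10 neural progenitor markers summed to 38.6 to 50.1, 40.4 to 42.5, 30.5 to 36.6 and 18.2 to 20.8 CPM in the same order, with Fabp7 at 0 in both knockout groups, and the 10 fibroblast markers to 22.2 to 23.4, 16.8 to 19.8, 33.4 to 37.5 and 21.2 to 23.7 CPM, with S100a4, Postn and Lum at or near 0. The fibroblast sum was higher in knockout than in wild-type normal cells, but only 1 of 5 tested fibroblast markers was higher there. The other 4 were lower (median log2 fold change -1.42). Over all tested genes 34.1% were higher and 34.1% lower, with a median of -0.03. The sums for neurons and progenitors, too, did not show the direction of most single markers. On pausing in knockout cells, 6 of 9 tested neuron markers rose and 3 fell (median log2 fold change 0.49). Of 8 tested progenitor markers, 3 rose and 2 fell (median 0.14). Over all tested genes 34.4% rose and 32.8% fell, with a median of 0.02. The part of these lists in the results below was not tested. In bulk RNA, fewer cells with a transcript and less transcript per cell cannot be told apart. Both wild-type replicates 1 and 2 stood above both replicates 3 and 4 in 15 of the 21 gamma genes in normal and 18 in paused culture (below them in 1 each), against 2 and 6 genes in knockout cells. The labels give no batch. The values of both pairs are given for the cluster sums and for some of the genes, and other genes are given as mean and SD.

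The gamma cluster carried nearly all of the clustered protocadherin mRNA. Per length, it took 96.5% to 98.9% of the TPM (transcript abundance corrected for length and scaled to one total per library) summed over the 3 clusters in a library. Its summed level was 29.9 ± 3.31 TPM (SD, n = 4, here and below) in wild-type normal cells, against 0.561 ± 0.101 TPM for the beta and 0.140 ± 0.0276 TPM for the alpha cluster. All 21 gamma genes passed the filter on low counts, as did 10 of 22 beta genes and 1 of 14 alpha genes, Pcdhac2. The 25 members that did not pass had 0 to 22 counts in a library and were not tested one by one. No member was at 0 in all 16 libraries, and the number of members with a mean of at least 1 count was 47 in both normal groups, 52 in wild-type paused and 55 in knockout paused cells. Pcdhb6, Pcdhb13, Pcdhb16 and Pcdhb20 would not have passed without the knockout paused group, where they were high, and Pcdhb6 and Pcdhb13 also not without the wild-type normal group. Counts over the 32 tested members include these 4, and the counts over the other 28 are given beside them where they differ.

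Within the gamma cluster the C-type genes Pcdhgc4 and Pcdhgc3 led in wild-type normal cells. Pcdhgc4 had 12.7 ± 0.81 TPM, of which 12.6 TPM was estimated for 1 short transcript described below and 0.0677 TPM for its other transcripts, so its first place rests on that transcript. Pcdhgc3 had 3.67 ± 0.29 TPM and was followed by Pcdhga12 with 2.43 ± 0.26, Pcdhga1 with 2.08 ± 0.60 and Pcdhga11 with 1.29 ± 0.10 TPM; Pcdhga12 and Pcdhga1 lay within each other's spread. The lowest gamma gene was Pcdhga6, at 0.0267 ± 0.025 TPM. In knockout paused cells the order was different. Pcdhgc3 was first with 9.51 ± 0.88 TPM, Pcdhga8 second with 7.37 ± 1.5, and Pcdhga12 and Pcdhga11 followed at 4.12 ± 0.29 and 4.12 ± 0.15, while Pcdhgc4 had fallen to 0.315 ± 0.066 TPM. Across the 18 alternate gamma genes, level and position along the array were only loosely related (Spearman's rho 0.22 in wild-type normal and 0.47 in knockout paused cells, a description over 18 genes of the same libraries).

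**Figure D1:**
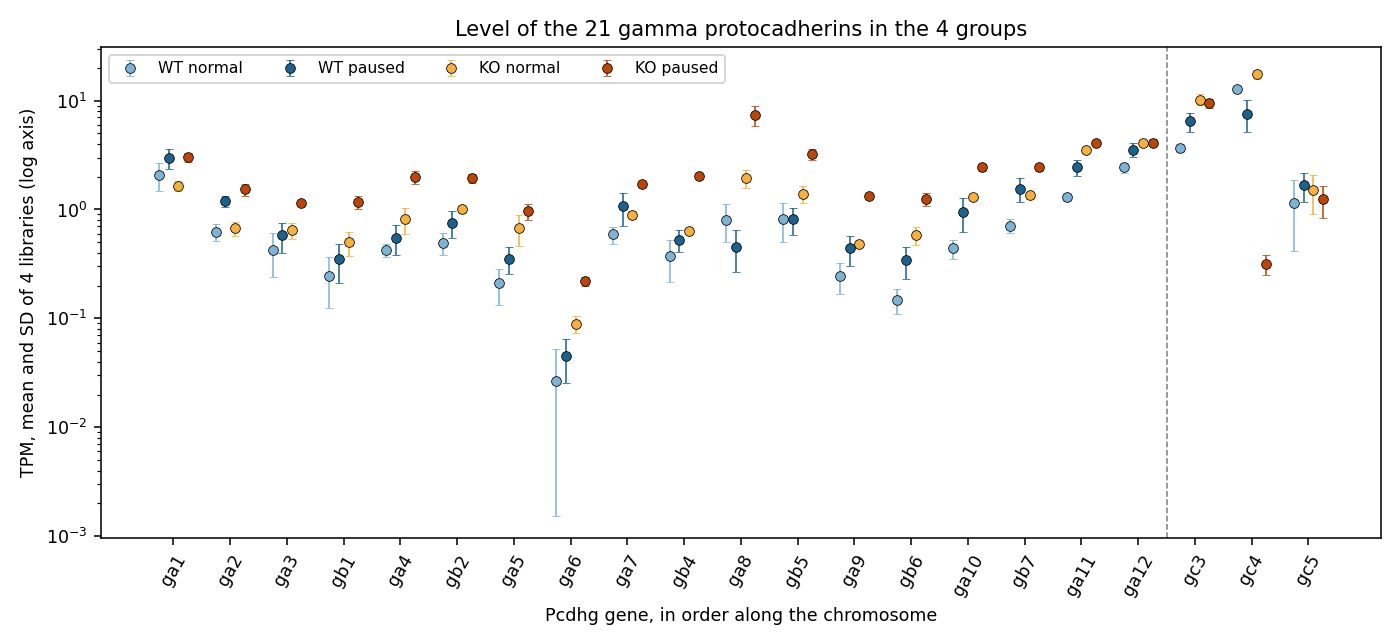
Mean TPM with SD (n = 4, log axis) of the 21 gamma genes in the 4 groups, in their order along the chromosome; the dashed line separates the alternate genes from the 3 C-type genes. Pcdhga8 stands at 7.37 TPM in knockout paused cells, and Pcdhgc4 falls there to 0.315 TPM.

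Because members of a cluster share sequence, the summed level of each cluster was examined before single genes. The alpha sum was 0.471, 0.404, 0.513 and 0.355 CPM in wild-type normal, 0.459, 0.522, 0.364 and 0.429 in wild-type paused, 0.526, 0.492, 0.339 and 0.379 in knockout normal and 0.950, 0.638, 0.825 and 0.761 CPM in knockout paused libraries. The first 3 groups overlapped and every knockout paused library lay above all 12 others, on only 30 to 88 counts per library. The log2 fold change on pausing was 0.87 ± 0.18 (SE) in knockout cells (adjusted p = 0.00037) and 0.02 ± 0.19 in wild-type cells (adjusted p = 0.92), and the difference of these 2 responses was 0.84 ± 0.26 (adjusted p = 0.016).

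The beta sum behaved similarly on 150 to 508 counts per library. It was 2.08, 2.34, 1.82 and 1.79 CPM in wild-type normal, 2.62, 2.59, 2.10 and 2.24 in wild-type paused, 1.64, 1.75, 1.69 and 1.65 in knockout normal and 4.28, 4.10, 3.94 and 4.09 CPM in knockout paused libraries. Knockout libraries were thus the lowest in normal culture and the highest when paused, with no overlap between the knockout groups and the others. Pausing raised the sum by 1.28 ± 0.10 on the log2 scale in knockout cells (adjusted p = 2.5e-09), and the responses of the genotypes differed by 1.04 ± 0.14 (adjusted p = 1.8e-05). In wild-type cells the change was 0.25 ± 0.10 (adjusted p = 0.045), with overlapping groups and an exact two-sided permutation p of 0.114. The call was lost when any 1 of 13 libraries was left out (0.179 to 0.2634). Knockout against wild type gave 0.78 ± 0.10 when paused (adjusted p = 1.4e-06) and -0.25 ± 0.10 in normal culture (adjusted p = 0.039), the latter lost without any 1 of 5 libraries (-0.2529 to -0.1846).

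The gamma sum was higher in knockout than in wild-type cells in both cultures. It was 86.9, 82.0, 72.1 and 72.1 CPM in wild-type normal, 95.5, 97.7, 75.9 and 76.8 in wild-type paused, 131.7, 141.4, 138.7 and 131.2 in knockout normal and 145.5, 155.2, 140.2 and 150.0 CPM in knockout paused libraries. All 8 knockout libraries lay above all 8 wild-type libraries. The log2 fold change, knockout over wild type, was 0.79 ± 0.08 (adjusted p = 1.8e-07) between the normal groups and 0.77 ± 0.08 (adjusted p = 2.8e-07) between the paused groups, and these differed by -0.02 ± 0.11 (adjusted p = 0.91). Pausing changed the sum by 0.14 ± 0.08 in wild-type (adjusted p = 0.14) and 0.12 ± 0.08 in knockout cells (adjusted p = 0.19), neither past the threshold. The wild-type change passed it without wild-type paused replicate 3 (0.2021) or 4 (0.1971), with a term for replicates 1 and 2 against 3 and 4 (0.1405), and with library totals alone (0.2916). The knockout change passed it with library totals alone (0.2734) and in a fit of the 2 knockout groups (0.108). For each of the 7 differences that the exact permutation test could separate fully (alpha and beta on pausing in knockout cells, beta and gamma by genotype in normal culture, all 3 by genotype when paused), p was 0.0286, the smallest that 4 against 4 libraries allow, and 0.049 after Benjamini-Hochberg adjustment over 12 tests.

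**Figure D2:**
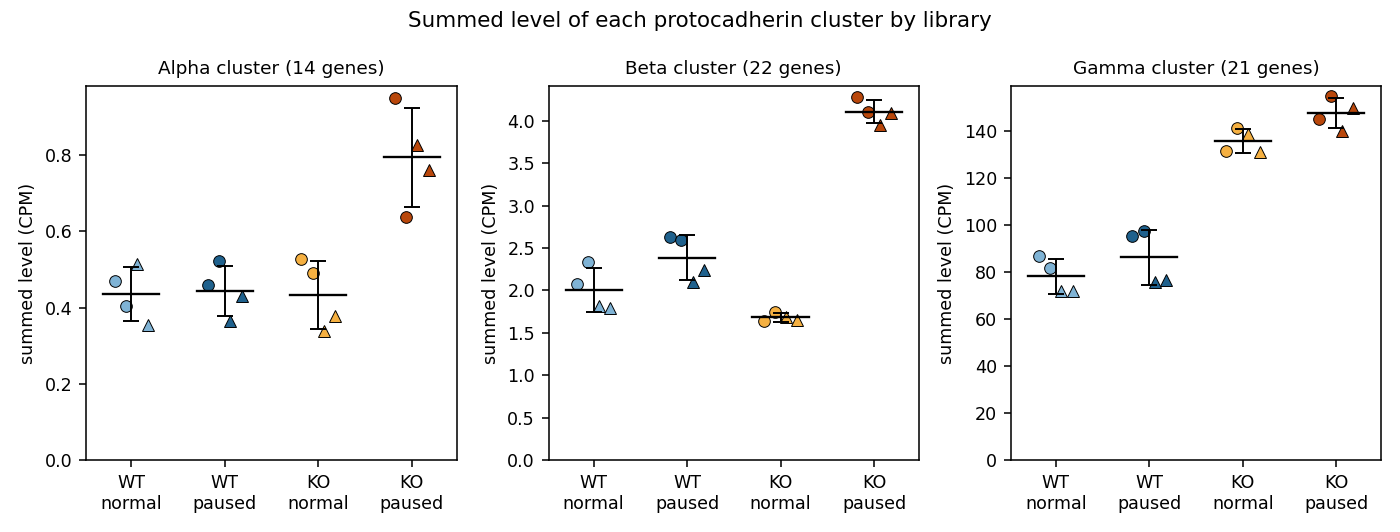
Summed level (CPM) of the alpha, beta and gamma genes in each library, with mean and SD per group; circles are replicates 1 and 2, triangles replicates 3 and 4. The alpha and beta sums are highest in the knockout paused libraries (means 0.793 and 4.10 CPM), and the gamma sum is higher in both knockout groups (136 and 148 CPM) than in both wild-type groups (78.3 and 86.5 CPM).

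In wild-type cells, pausing raised 11 of the 32 tested members and lowered 2; over all 18944 genes tested, 60.7% changed, of which 33.3% rose and 27.5% fell as shares of all tested genes. The members that rose were 10 gamma genes and Pcdhb22, so the share of members that rose was close to that of all genes, and fewer fell. Their median log2 fold change was 0.35, against 0.04 for all genes. Scaling to library totals alone moved the median of all genes by 0.15 in both pausing comparisons, and the split of all calls from 6301 higher and 5204 lower genes to 8223 and 3665 in wild-type cells and from 6522 higher and 6205 lower to 8284 and 4638 in knockout cells. The gene with the smallest p among the members was Pcdhga11, at 4.81, 5.09, 4.43 and 4.72 CPM in normal and 8.55, 8.67, 6.28 and 6.61 CPM in paused wild-type libraries. The groups did not overlap, and the log2 fold change was 0.66 ± 0.09 (adjusted p = 5.1e-06). Pcdhgb7 went from 2.59 ± 0.295 to 4.73 ± 1.15 CPM (0.87 ± 0.14, adjusted p = 1.9e-05), Pcdhga10 from 1.61 ± 0.265 to 2.92 ± 0.992 CPM and Pcdhgb6 from 0.540 ± 0.141 to 1.03 ± 0.318 CPM. In Pcdhga10, replicates 1 and 2 rose from 1.98 and 1.62 to 3.71 and 3.84 CPM and replicates 3 and 4 from 1.42 and 1.41 to 1.99 and 2.14 CPM, so the difference was in both pairs and larger in the first. Paused replicates 1 to 4 had 552, 611, 366 and 375 estimated counts of Pcdhgb7, against 272, 279, 208 and 219 in normal culture. For Pcdhgb6 they had 110, 150, 87 and 69, against 59, 67, 52 and 29. Over the 18 alternate gamma genes summed, the values were 50.8 and 46.9 CPM in replicates 1 and 2 in normal and 65.0 and 66.2 CPM in paused culture, and 37.6 and 36.0 against 45.1 and 44.9 CPM in replicates 3 and 4. The members that fell were Pcdhgc4 and Pcdhga8, described below. The groups did not overlap for 8 of the 32 tested members upward and 1 downward, where the shares over all tested genes were 29.8% and 24.2%.

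In knockout cells, pausing raised 25 of the 32 tested members (22 of 28 without the 4 beta genes above) and lowered 3, where 67.2% of all tested genes changed, 34.4% upward and 32.8% downward. Those that rose were 9 of the 10 tested beta genes (6 of 6 without those 4) and 16 of the 21 gamma genes, among them all 6 tested Pcdhgb genes and 9 of 12 Pcdhga genes. Those that fell were Pcdhac2, Pcdhgc3 and Pcdhgc4, which are all C-type isoforms. Pcdhgc5, the other tested C-type isoform, was among those that rose. The fall of Pcdhgc4 rests on its short transcript described below, without which Pcdhgc4 rose by 1.10 (adjusted p = 0.0016). The median log2 fold change was 0.92 over the 32 and 0.81 over the 28 members, against 0.02 for all genes. Among all 57 members, tested or not, the mean was higher in paused knockout cells in 50, a count not made over all genes. Of the 57, 25 were untested members with 0 to 22 counts in a library. Of the 32 tested members, 24 did not overlap upward (21 of the 28) and 4 downward, where the shares over all tested genes were 32.7% and 31.4%. After Pcdhga8, the largest log2 fold changes of gamma genes were those of Pcdhgb4, from 1.73 ± 0.0592 to 5.04 ± 0.227 CPM (1.54 ± 0.20, adjusted p = 1.5e-06), and of Pcdhga9, from 1.52 ± 0.0921 to 3.36 ± 0.124 CPM (1.15 ± 0.20, adjusted p = 4.7e-05). The median over the 21 gamma genes was 0.72, while the gamma sum did not pass the same edgeR test (0.12 ± 0.08, adjusted p = 0.19). Summed, the Pcdhga and Pcdhgb genes went from 73.6 to 118 CPM and the gamma C-types from 62.1 to 29.9 CPM. Reads of shared exons are divided among gamma genes, and how far this division made single genes rise was not tested. The 2 most abundant Pcdhga genes at the end of the array did not pass the test. Pcdhga11 was at 12.0 ± 0.376 and 12.2 ± 0.548 CPM and Pcdhga12 at 14.8 ± 0.507 and 13.1 ± 0.942 CPM. Pcdhga12 passed it as a fall without wild-type paused replicate 4 (-0.1796), with a term for replicates 1 and 2 against 3 and 4 (-0.1809) and in a fit of the 2 knockout groups only (-0.1939).

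Knockout and wild type differed in both cultures. In normal culture 17 of the 32 tested members were higher in knockout cells and 4 lower (17 and 3 of the 28), where 68.2% of all tested genes differed, 34.1% higher and 34.1% lower. The groups did not overlap for 15 tested members upward and 4 downward (15 and 3 of the 28), against 30.9% and 29.6% of all tested genes. The higher ones were 16 of 21 gamma genes and Pcdhb19, and the lower ones were Pcdhb5, Pcdhb6, Pcdhb7 and Pcdhb17. Pcdhb6 was called neither without wild-type normal replicate 1 in this culture (-1.391) nor without knockout paused replicate 4 (1.15) or wild-type paused replicate 3 (1.117) in the other, nor there with DESeq2 (1.372). In paused culture 24 were higher and 3 lower (21 and 3 of the 28), where 65.4% of all tested genes differed, 30.8% higher and 34.5% lower. The groups did not overlap for 21 tested members upward (19 of the 28) and 2 downward, against 30.5% and 32.9% of all tested genes. Here 18 gamma and 6 beta genes were higher, Pcdhb6, Pcdhb16 and Pcdhb20 among the latter, and Pcdhac2, Pcdhb17 and Pcdhgc4 were lower. Without its short transcript described below, Pcdhgc4 was instead higher by 1.02 (adjusted p = 0.0027). How far the division of shared-exon reads made single gamma genes higher was not tested here either. Among the 18 alternate gamma genes, 15 were higher in normal and 16 in paused knockout cells, and the others did not pass the test. The comparisons share the knockout and wild-type libraries of each culture with the pausing comparisons, so their counts are not independent of those above. Pcdhgb6 had the largest log2 fold change of the alternate gamma genes in normal culture, with 0.621, 0.655, 0.544 and 0.341 CPM in wild-type and 1.63, 2.07, 2.29 and 1.76 CPM in knockout libraries (1.83 ± 0.21, adjusted p = 3.9e-07). The ranges were far apart, and in paused culture the difference was 1.80 ± 0.19. Pcdhga1, at the start of the array, was an exception with overlapping groups in both cultures: 6.08 ± 1.76 against 4.67 ± 0.34 CPM in normal culture (adjusted p = 0.059) and 7.34 ± 1.53 against 7.12 ± 0.543 CPM when paused (adjusted p = 0.83). Its wild-type libraries ranged from 4.47 to 8.14 CPM in normal culture, and the call appeared without wild-type normal replicate 3 (-0.4957) or 4 (-0.5002) or wild-type paused replicate 4 (-0.3802). Pcdhga1 was also called lower in knockout normal cells with DESeq2's scaling in edgeR (-0.3973), DESeq2 (-0.3876), a term for replicates 1 and 2 against 3 and 4 (-0.3533), length-scaled TPM counts (-0.4232) and protein-coding transcripts only (-0.4391). Whether it differed thus depends on these choices.

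The response to pausing itself differed between the genotypes for 12 of the 32 tested members, 8 with a more positive response in knockout cells and 4 with a more negative one (6 and 4 of the 28), where 41.9% of all tested genes differed, 17.4% and 24.5% in these directions. More positive were 5 beta genes and 3 gamma genes, Pcdhga8, Pcdhgb4 and Pcdhgb5. Pcdhb6 and Pcdhb16 would not have been tested without the knockout paused group, and Pcdhb6 also not without the wild-type normal group. More negative were Pcdhgc3, Pcdhgc4, Pcdhga11 and Pcdhga12, the gamma genes nearest the constant exons apart from Pcdhgc5. The place of Pcdhgc4 among them rests on its short transcript described below, without which its difference was 0.48 (adjusted p = 0.37). Pcdhga11 and Pcdhga12 rose on pausing in wild-type cells and did not pass the test in knockout cells, where their level in normal culture was 12.0 and 14.8 CPM, against 4.76 and 9.56 CPM in wild-type cells; the differences of the responses were -0.64 ± 0.13 (adjusted p = 0.00059) and -0.46 ± 0.12 (adjusted p = 0.0053). The wild-type rise of Pcdhga12 (0.28 ± 0.09, adjusted p = 0.0088) was lost without wild-type paused replicate 1 (0.2079) and in a fit of the 2 wild-type groups only (0.2367).

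**Figure D3:**
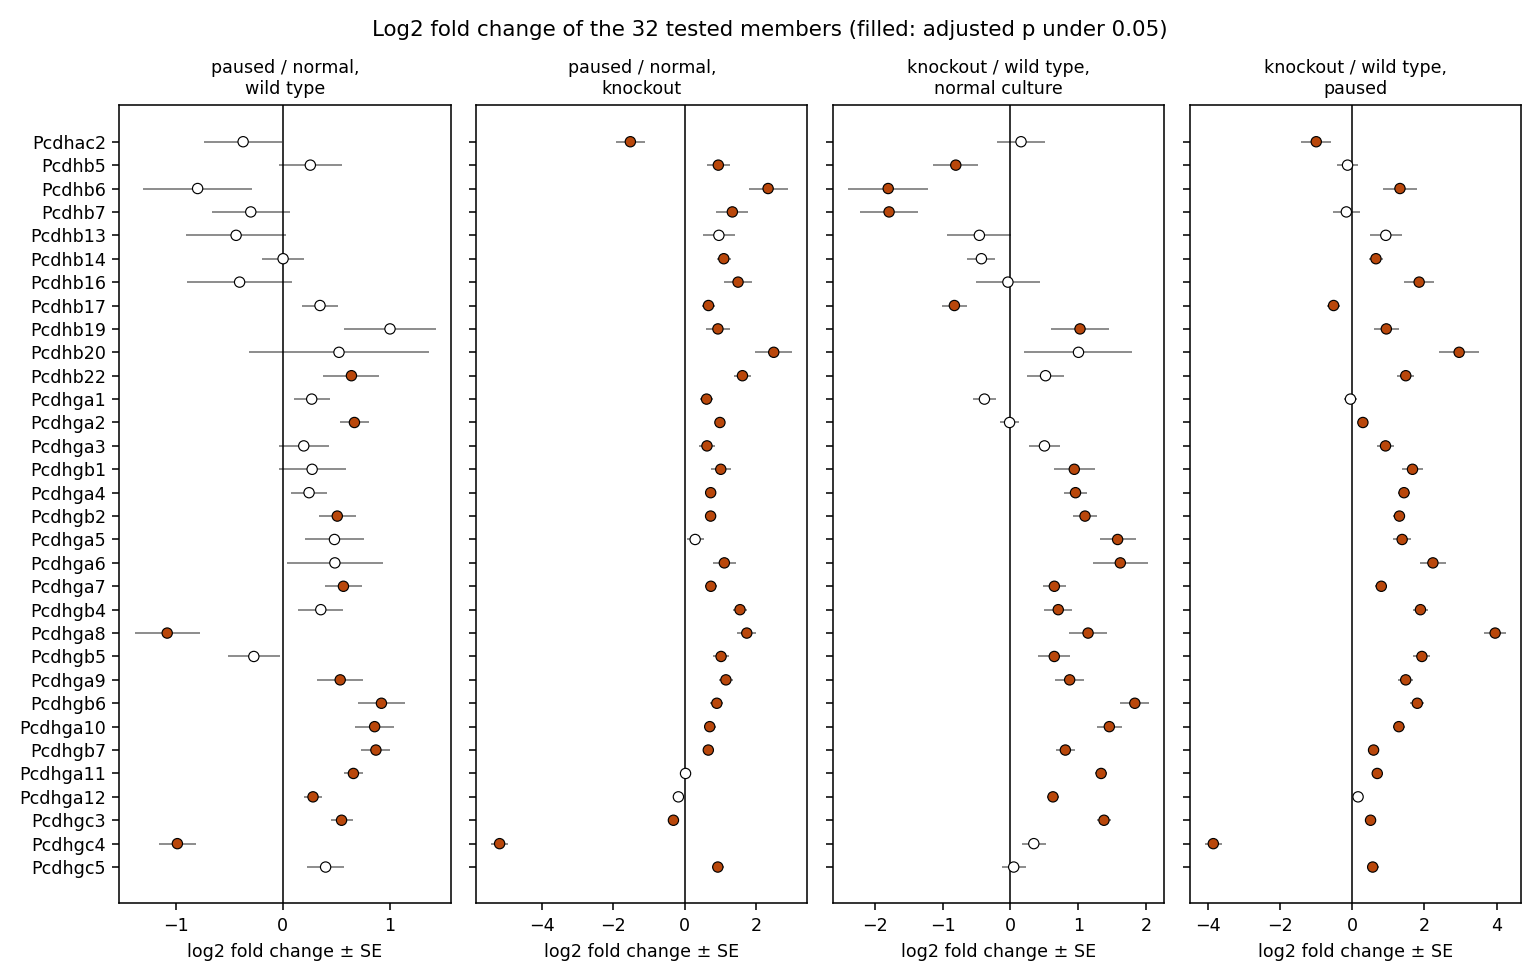
Log2 fold change with SE of the 32 tested members in the 4 pairwise comparisons, in order along the chromosome; filled points have an adjusted p under 0.05, and the scale of the horizontal axis differs between panels. In knockout cells 25 members rose on pausing, while Pcdhgc4 lies far to the left in both comparisons that involve knockout paused cells.

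Pcdhgc4, a C-type isoform that is needed for the survival of inhibitory neurons in mice, showed the largest change of any member. It had 21.8, 21.99, 20.4 and 21.5 CPM in wild-type normal, 9.06, 6.73, 13.4 and 14.01 in wild-type paused, 31.3, 23.7, 26.0 and 27.8 in knockout normal and 0.687, 0.821, 0.576 and 0.912 CPM in knockout paused libraries. The 4 groups fell into separate ranges, with the knockout paused libraries at the bottom. The log2 fold change on pausing was -0.99 ± 0.18 in wild-type (adjusted p = 0.00017) and -5.17 ± 0.23 in knockout cells (adjusted p = 2.6e-11), and the responses differed by -4.19 ± 0.29 (adjusted p = 4.9e-08).

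Nearly all of these counts belonged to 1 short transcript. Pcdhgc4-203 has 2272 bases, of which 153 are an own first exon (chromosome 18, 37815401 to 37815553) and 2119 lie in the 3 constant exons that other gamma transcripts also contain. That first exon lies inside the longer first exon of the full-length Pcdhgc4-201 (37815079 to 37817983), and 151 of the 2242 stretches of 31 bases in Pcdhgc4-203 occur in no other gene and 28 in no other transcript. Pcdhgc4-203 was assigned 2042, 2225, 1932 and 1798 estimated counts in wild-type normal, 875, 651, 1340 and 1296 in wild-type paused, 2839, 2419, 2572 and 2550 in knockout normal and 0, 0, 0 and 0 in knockout paused libraries. It was thus the main Pcdhgc4 transcript in the first 3 groups and was estimated at 0 in all 4 knockout paused libraries. The full-length Pcdhgc4-201 went the other way, with 9, 29, 24 and 22 counts in knockout normal and 26, 57, 36 and 47 in knockout paused libraries, and these ranges overlap. The intron-retaining Pcdhgc4-202 had 9, 14, 15 and 15 against 37, 45, 25 and 43 counts, without overlap. With Pcdhgc4-203 left out, an alternative added after the data were seen, Pcdhgc4 rose on pausing in knockout cells by 1.10 on the log2 scale (adjusted p = 0.0016), was higher in knockout than in wild-type paused cells by 1.02 (adjusted p = 0.0027), and its responses to pausing no longer differed past the threshold (0.48, adjusted p = 0.37). The gamma sum without this transcript changed by 0.41 on pausing in wild-type (adjusted p = 0.007) and 0.44 in knockout cells (adjusted p = 0.0038). Its mean level was then 57.1 ± 7.002, 76.0 ± 15.2, 109 ± 8.11 and 148 ± 6.397 CPM in wild-type normal, wild-type paused, knockout normal and knockout paused cells. Leaving it out takes counts from the first 3 groups and none from knockout paused libraries. A larger rise of the reduced gamma sum on pausing thus follows from the removal itself. The reduced sum may also lack constant-exon reads of other gamma transcripts in those 3 groups, so it does not replace the full sum. The direction of Pcdhgc4 and the side of the threshold on which the gamma sum fell both depend on how this transcript is counted. Where the reads of the constant exons came from was not tested, since the deposited estimates do not hold it.

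**Figure D4:**
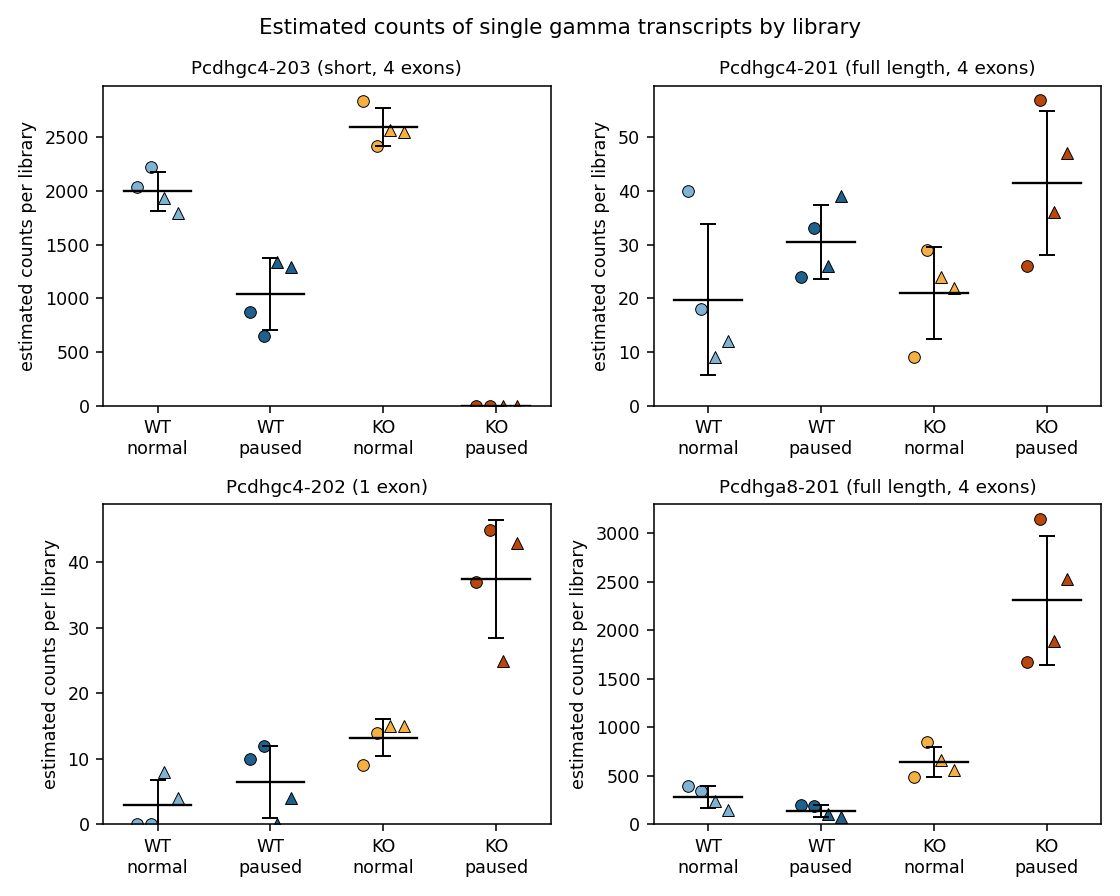
Estimated counts of the 3 Pcdhgc4 transcripts and of Pcdhga8-201 in each library, with mean and SD per group; circles are replicates 1 and 2, triangles replicates 3 and 4, and each panel has its own vertical scale. Pcdhgc4-203 is at 0 in all 4 knockout paused libraries, where Pcdhga8-201 has 1669 to 3140 counts.

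The other C-type isoforms each had a pattern of their own. Pcdhgc3, an isoform with wide expression outside neurons, had 13.0, 12.2, 13.0 and 13.9 CPM in wild-type normal, 19.9, 23.6, 16.1 and 16.6 in wild-type paused, 30.99, 37.6, 35.4 and 31.4 in knockout normal and 29.1, 28.6, 25.7 and 25.3 CPM in knockout paused libraries. It was lowest in wild-type normal and highest in knockout normal cells, and no 2 groups overlapped. Pausing raised it by 0.55 ± 0.10 in wild-type cells (adjusted p = 0.00018) while in knockout cells it fell by 0.32 ± 0.10 (adjusted p = 0.01), the latter not past the threshold with library totals alone (-0.1662). Pcdhgc5 rose on pausing in knockout cells from 1.04 ± 0.139 to 1.97 ± 0.361 CPM (0.92 ± 0.17, adjusted p = 0.00011); with counts scaled by transcript length this became -0.48 (adjusted p = 0.33). With protein-coding transcripts only it did not pass the test (0.4317). Its transcript Pcdhgc5-202, of 5777 bases, went from a mean of 49.1 to 132 counts, and Pcdhgc5-204, of 593 bases, from 37.8 to 17.9 counts. Pcdhac2 was the only tested alpha gene, on 2 to 25 counts a library, and went from 0.185 ± 0.0397 to 0.0620 ± 0.0381 CPM in knockout cells (-1.52 ± 0.40, adjusted p = 0.0025), against the direction of the alpha sum. Its difference from wild type when paused (-0.99 ± 0.42, adjusted p = 0.044) was lost without any 1 of 8 libraries (-1.071 to -0.7055), and also with no filter (-0.9816), DESeq2 (-0.9919), only the 2 paused groups (-0.9792) and length-scaled TPM counts (-0.9865). Pcdhac1 had at most 3 counts in a library. The 3 gamma C-types together took 45.6% ± 4.08 of gamma counts in wild-type normal, 36.6% ± 5.21 in wild-type paused, 45.8% ± 1.64 in knockout normal and 20.2% ± 0.997 in knockout paused cells. With Pcdhgc4-203 left out of both, the shares were 25.3% ± 3.62, 27.5% ± 1.68, 32.3% ± 0.691 and 20.2% ± 0.997, so the size of the drop also turns on this transcript.

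Pcdhga8, an alternate gamma isoform, gained more CPM on pausing in knockout cells than any other member. It had 4.13, 3.39, 2.52 and 1.74 CPM in wild-type normal, 1.96, 1.80, 1.05 and 0.752 in wild-type paused, 5.37, 8.13, 6.61 and 6.02 in knockout normal and 17.99, 25.3, 17.9 and 25.6 CPM in knockout paused libraries. The wild-type groups overlapped and the knockout groups lay above both, apart from each other. On pausing it fell by 1.08 ± 0.31 in wild-type cells (adjusted p = 0.0066) and rose by 1.73 ± 0.26 in knockout cells (adjusted p = 3.6e-05), with a difference of 2.81 ± 0.40 (adjusted p = 7.1e-05). Its share of gamma counts was 3.70% ± 1.00, 1.57% ± 0.480, 4.80% ± 0.699 and 14.6% ± 2.40 in the same order of groups. All of its counts are in 1 transcript of 4 exons, Pcdhga8-201, and 48.7% of the 31-base stretches of the gene occur in no other gene, so part of this estimate too was divided among gamma transcripts.

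How far members can be told apart differed by cluster. The median share of 31-base stretches found in no other gene was 36.5% for alpha (9.32% to 54.5%), 53.9% for gamma (32.5% to 72.7%) and 88.2% for beta genes (77.5% to 100%). The beta genes are thus the members whose own estimates share least with other genes. Among the gamma transcripts, 11 of 37 do not contain the last constant exon. These summed to 8.04 ± 2.04 CPM in wild-type normal, 8.34 ± 2.28 in wild-type paused, 8.07 ± 1.28 in knockout normal and 14.8 ± 2.68 CPM in knockout paused cells. The mean was highest in knockout paused cells, where the lowest library (11.2 CPM) lay below the highest wild-type paused library (11.4 CPM). Pcdhgb8, a polymorphic pseudogene in M21 that shares the constant exons, is no member by the rule, and adding it to the gamma sum changed no call of a cluster sum.

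Among the beta genes, Pcdhb22 rose most clearly. It had 0.148, 0.459, 0.202 and 0.299 CPM in wild-type normal, 0.524, 0.511, 0.378 and 0.303 in wild-type paused, 0.439, 0.387, 0.379 and 0.388 in knockout normal and 1.14, 1.14, 1.29 and 1.29 CPM in knockout paused libraries. The first 3 groups overlapped and the knockout paused libraries stood above all others. Pausing raised it by 1.61 ± 0.23 in knockout cells (adjusted p = 6.2e-06). The wild-type change of 0.64 ± 0.26 (adjusted p = 0.042) was lost without any 1 of 11 libraries (0.4308 to 0.6727) and with DESeq2's scaling in edgeR (0.6128), no filter (0.6376), only the 2 wild-type groups (0.5976) or length-scaled TPM counts (0.5918). The difference of the responses (0.97 ± 0.35, adjusted p = 0.035) was lost without any 1 of 9 (0.6234 to 0.9643). The genotype difference in normal culture (0.52 ± 0.27, adjusted p = 0.093) passed the threshold without wild-type normal replicate 2 (0.8903) and with length-scaled TPM counts (0.722).

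Pcdhb17, the most abundant beta gene per length in wild-type normal cells (0.150 ± 0.022 TPM), had 0.617, 0.490, 0.586 and 0.473 CPM in wild-type normal, 0.648, 0.755, 0.668 and 0.691 in wild-type paused, 0.208, 0.350, 0.299 and 0.365 in knockout normal and 0.561, 0.387, 0.540 and 0.457 CPM in knockout paused libraries. It was lower in knockout than in wild-type cells in both cultures, with log2 differences of -0.83 ± 0.19 (adjusted p = 0.00068) and -0.51 ± 0.17 (adjusted p = 0.014), the latter lost without knockout paused replicate 2 (-0.4037). Pcdhb7 was lower in knockout normal cells than elsewhere (0.0510 ± 0.0156 CPM against 0.180 ± 0.0880 in wild type, -1.79 ± 0.43, adjusted p = 0.0013) and rose from there on pausing by 1.33 ± 0.44 (adjusted p = 0.013). Pcdhb14 rose on pausing in knockout cells by 1.09 ± 0.20 (adjusted p = 8e-05), with a wild-type change of 0.00 ± 0.20. On pausing in knockout cells, the fitted log2 fold changes of Pcdhb20 (2.48) and Pcdhb6 (2.33) were the highest of all tested members. Both are low genes that passed the filter through that group, as is Pcdhb16 (1.49). Pcdhb20 had 0 to 4 counts in wild-type, 1 to 6 in knockout normal and 12 to 29 counts in knockout paused libraries, and Pcdhb16 1 to 11 counts in the first 3 groups and 18 to 29 in the last.

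**Figure D5:**
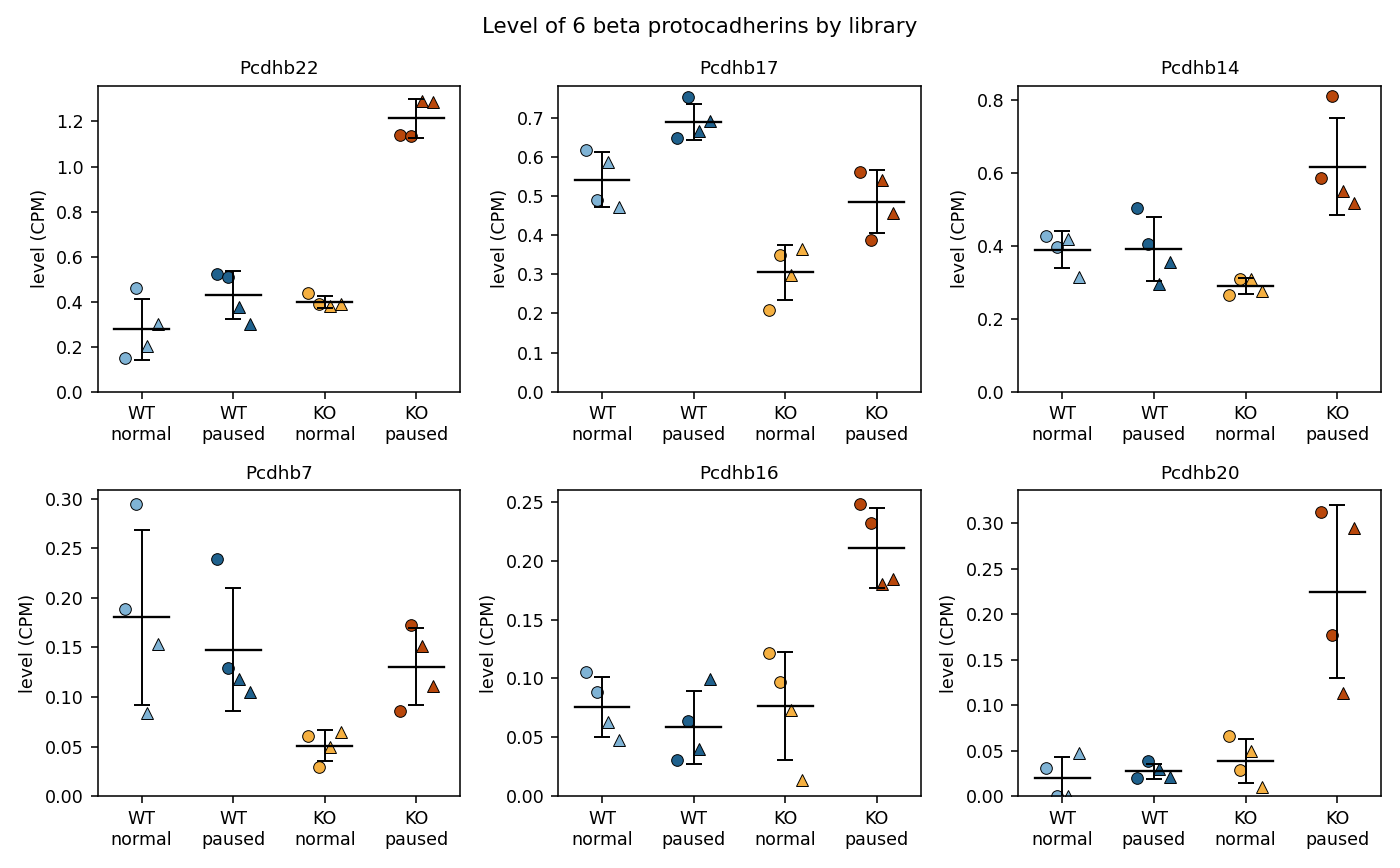
Level (CPM) of 6 beta genes in each library, with mean and SD per group; circles are replicates 1 and 2, triangles replicates 3 and 4, and each panel has its own vertical scale. Pcdhb22, Pcdhb14, Pcdhb16 and Pcdhb20 are highest in knockout paused cells, while Pcdhb17 is highest in wild-type paused cells at 0.690 CPM.

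The 13 untested alpha genes had few counts each. Pcdha3, the one with the most counts in knockout paused cells by group mean, had 0, 5, 6 and 4 counts in wild-type normal, 9, 6, 3 and 4 in wild-type paused, 9, 6, 1 and 2 in knockout normal and 7, 12, 21 and 22 counts in knockout paused libraries. Pcdha2 had 21, 16, 7 and 7 and Pcdha4 8, 17, 7 and 11 counts in the last group. Over the 14 alpha genes the mean was higher on pausing in 12 in knockout and in 8 in wild-type cells. This count was not made over all genes. These single genes are too shallow to set against each other, and only 9.32% of the 31-base stretches of Pcdha4 are its own.

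Other genes of the cadherin family are given for comparison. Of 12 classical cadherins and catenins, 7 rose on pausing in wild-type and 4 in knockout cells, and the others did not pass the test. Over all tested genes, 33.3% rose and 27.5% fell in wild-type and 34.4% and 32.8% in knockout cells. Cdh1, the E-cadherin of ESC junctions, was at 320 ± 21.6, 367 ± 11.5, 427 ± 5.09 and 501 ± 20.9 CPM in the 4 groups. Of the non-clustered protocadherins, 8 of 12 were tested, and 6 were lower and 1 higher in knockout cells in both cultures, with a median log2 difference of -1.23 in normal culture, against -0.03 for all genes. The 1 higher gene was Pcdh1, and Pcdh8, Pcdh10, Pcdh18 and Pcdh19 were among the lower ones. Summed over this list, normal libraries had 10.2 to 11.8 CPM in wild-type and 19.0 to 21.5 CPM in knockout cells. Paused libraries had 13.1 to 15.8 and 12.0 to 12.9 CPM. The sum was thus higher in knockout cells in normal culture, against the direction of most tested genes of the list, and lower when paused. Over all tested genes, 34.1% were lower and 34.1% higher in normal and 34.5% and 30.8% in paused culture. Of the 21 gamma genes, 19 had a log2 difference above 0 in each culture, where the median over all tested genes was -0.03 in both. Pcdhga1 and Pcdhga2 were below 0 in normal culture and Pcdhga1 and Pcdhgc4 in paused culture.

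Of 13 genes for CTCF and cohesin, which join protocadherin promoters to their enhancers, 3 rose and 5 fell on pausing in wild-type cells. In knockout cells 4 rose and 5 fell. Over all tested genes, 33.3% rose and 27.5% fell on pausing in wild-type and 34.4% and 32.8% in knockout cells. Ctcf itself was at 218 ± 10.7 and 190 ± 5.81 CPM in wild-type and 219 ± 10.1 and 184 ± 6.43 CPM in knockout cells, normal and paused, with changes of -0.20 and -0.25. Of 16 genes for DNA methylation and repressors of the clusters, 3 rose and 9 fell on pausing in knockout cells, against 6 and 4 in wild-type cells. In comparison with wild type, 4 were higher and 7 lower in normal and 3 higher and 12 lower in paused knockout cells. Over all tested genes, 34.1% were higher and 34.1% lower in normal and 30.8% and 34.5% in paused culture. Dnmt3b, a de novo methyltransferase that methylates protocadherin promoters, was at 477 ± 46.4 and 402 ± 75.0 CPM in wild-type and 89.4 ± 10.6 and 69.7 ± 9.52 CPM in knockout cells. On pausing in knockout cells Dnmt3a, the other de novo methyltransferase, changed by -1.31 and Uhrf1, which recruits the maintenance methyltransferase, by -0.88. Smchd1, a chromatin protein that represses the clusters, was higher in knockout cells, by 0.83 in normal and 0.20 in paused culture. Of 12 cytoplasmic partners of the protocadherin tail, 7 rose and 2 fell on pausing in wild-type and 4 rose and 4 fell in knockout cells. Ptk2b, a kinase that the tail inhibits, was at 33.3, 64.4, 24.7 and 38.9 CPM in the 4 groups. Whether any of these levels bears on the members was not tested.

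The genes beside the clusters on chromosome 18 moved in both directions. Within 300 kb, 23 of 26 neighbours were tested. On pausing 9 rose and 9 fell in wild-type and 5 rose and 11 fell in knockout cells, with medians of 0.16 and -0.25. The shares over all tested genes were 33.3% and 27.5% in wild-type and 34.4% and 32.8% in knockout cells, with medians of 0.04 and 0.02. Taf7, which lies between the beta and gamma arrays and encodes a subunit of the general transcription factor TFIID, was at 135 ± 2.65 and 124 ± 2.28 CPM in wild-type and 132 ± 3.28 and 119.9 ± 1.14 CPM in knockout cells. It fell slightly on pausing in both, with log2 changes of -0.12 and -0.14, and did not pass the test between genotypes (-0.04 and -0.05).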

How the data were processed

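Per the submitters' processing notes, reads were quantified with kallisto on GRCm38; its version is not given in the sources used here. For each transcript the authors deposited an estimated count (an expected count, not a whole-read tally) and a TPM value, per the file headers, beside its length and effective length. Transcripts were matched to GENCODE M21 (116728 of 118489; the other 1761 held 0.656% to 0.712% of counts), and estimated counts were summed per gene, rounded and tested with edgeR 4.0.16 (robust quasi-likelihood F test, filterByExpr with a minimum count of 10, TMM factors 0.933 to 1.07, 1 mean per group, all 16 libraries, biological coefficient of variation 0.0852). Benjamini-Hochberg adjustment ran over 18944 genes per contrast, with a threshold of 0.05; "rose", "fell" and "changed" refer to it. Cluster sums replaced their members in a refit of the same model. DESeq2 was an alternative. Levels of genes are compared in TPM, and CPM and counts show differences between libraries. kallisto divides reads that fit several transcripts, so gene values within a cluster are not independent.

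The members and all gene lists were chosen with earlier results of these data known. Named members, 25 in all, were the C-types, the 4 most abundant others of each cluster, and the 3 largest called changes in each direction in each of 5 contrasts; Pcdhb5, Pcdhb13, Pcdhb19, Pcdhga2, Pcdhga9, Pcdhgb4, Pcdhgb5 and the genes of other lists were named after their values were seen. Distinct sequence was counted as 31-base stretches of the transcripts. Data were simulated for pausing in wild-type cells over 18944 genes. Of log2 changes of 1, 98% were recovered, and of changes of 0.5, 64% to 70%, with 4.62% false calls. The simulation changed only 50 genes for each size and sign, none of them at low counts, where most tested beta genes lie. In the data 60.7% of genes changed, so these rates do not carry over to such members. Replicate numbers were not taken as pairs of libraries, as the labels do not state a pairing.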

Additional observations from a re-analysis of the deposited data

Results flagged for a closer look

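The response to pausing differed between the genotypes, by the interaction term of edgeR's quasi-likelihood test at an adjusted p under 0.05, in the following values, each given as the log2 response of knockout cells minus that of wild-type cells. Among the sums it was 0.84 for the alpha cluster and 1.04 for the beta cluster. Among beta genes it was 3.13 for Pcdhb6, 1.89 for Pcdhb16, 1.63 for Pcdhb7, 1.09 for Pcdhb14 and 0.97 for Pcdhb22. Pcdhb6 and Pcdhb16 would not have passed the filter on low counts without the knockout paused group, where they were high. Pcdhb6 would also not have passed without the wild-type normal group. The values of both are thus a description. Pcdhb16 lost this call without wild-type normal replicate 1 (1.705), and Pcdhb7 without any 1 of 7 libraries (1.316 to 1.564). Pcdhb22 lost it without any 1 of 9 libraries (0.6234 to 0.9643). Among gamma genes it was 2.81 for Pcdhga8, 1.29 for Pcdhgb5 and 1.19 for Pcdhgb4. It was -0.46 for Pcdhga12, -0.64 for Pcdhga11, -0.87 for Pcdhgc3 and -4.19 for Pcdhgc4. The value of Pcdhgc4 turned to 0.48 without the transcript Pcdhgc4-203.

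In knockout normal cells, 1 library of Pcdhb22 stood apart from the others: 0.439 CPM in replicate 1 against 0.379 to 0.388 CPM in replicates 2 to 4, a gap of 0.851 of the group's range. This is 1 of 92 groups examined, where chance alone would mark about 1 in 20.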

How the results depend on the processing

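Of the cluster sums, the beta change on pausing in wild-type cells (0.25, called) fell short of the threshold with DESeq2's median-ratio scaling in edgeR (0.2182), no filter (0.2421), DESeq2 (0.2214), only the 2 groups compared (0.2019) and protein-coding transcripts only (0.2326), and ranged from 0.179 to 0.3066 with 1 library left out in turn. The beta difference between genotypes in normal culture (-0.25) did so with no filter (-0.2294), only 2 groups (-0.264) and length-scaled TPM counts (-0.1556), and ranged from -0.3113 to -0.1846. The gamma change on pausing passed it in wild-type cells with library totals (0.2916), with a term for replicates 1 and 2 against 3 and 4 (0.1405) and without Pcdhgc4-203 (0.4127), with 0.08013 to 0.2021 over left-out libraries, and in knockout cells with library totals (0.2734), only 2 groups (0.108) and without Pcdhgc4-203 (0.4408). Members called on pausing in wild-type cells numbered 8 with only 2 groups and 9 to 15 over left-out libraries, against 13; the other counts stayed within 1.5 times. Directions turned for Pcdhgc4 without Pcdhgc4-203 (0.6149 on pausing in wild-type and 1.096 in knockout cells, 0.481 between responses, 1.022 between paused genotypes) and for Pcdhgc5 with length-scaled TPM counts (-0.4799 on pausing in knockout cells, -0.4791 between paused genotypes). Apart from the construction of each alternative, the cause was not tested. A block for the replicate number, which the labels repeat across groups, gave 14, 30, 12, 21 and 26 members called and changed no call of a cluster sum (beta on pausing in wild-type cells 0.2479). It called Pcdhga12 on pausing in knockout cells (-0.1828) and Pcdhga1 between genotypes in normal culture (-0.3544) as lower, and Pcdhga5 as higher on pausing in wild-type (0.5061) and knockout cells (0.3363), and lost Pcdhac2 between paused genotypes (-0.9874). Of 24 same-number correlations 13 were over 0.1 (-0.2 to 0.4). In 11 of these 24 comparisons the library correlated best with the one of its own number in the other group. These values do not settle whether the numbers are pairs, and they were not taken as such. Depth limits the alpha genes most, at 30 to 88 counts per library in sum.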

Other observations

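The 2 gene identifiers that M21 names Pcdha11 (ENSMUSG00000007440.10 and ENSMUSG00000102206.5) were kept as separate members. Both had at most 8 counts in a library.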
